A study of Mus musculus with 6 samples.

Results

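Retinoic acid is a signal made from vitamin A, and 9 mouse genes that carry its precursor, make it, bind it, read it or break it down are described here. The genes were chosen with earlier results of these data known, and their probe sets were found by gene symbol alone. On the arrays 10 probe sets name 1 of these genes, out of 20380 probe sets that name 1 gene and 12393 genes in all. The study compared brains of Swiss Albino mouse embryos at stage E11.5 on Affymetrix mouse expression arrays, which report a fluorescence signal per probe set. Each array held total RNA of 1 brain. The control group had 3 brains of embryos from normal mothers. The diabetic group had 3 malformed brains of embryos from mothers with diabetes induced by streptozotocin, which destroys the beta cells of the pancreas. Maternal diabetes, exposure to streptozotocin and malformation therefore cannot be told apart, and the sources used here do not say whether brains shared a litter, so p-values measure only the spread between these brains.

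In the embryo, retinol travels bound to the carrier Rbp4 and enters cells through the membrane receptor Stra6. Cells oxidise it to retinaldehyde and then, with the Aldh1a enzymes, to retinoic acid. In the cytosol it is held by Crabp1 and Crabp2, in the nucleus pairs of a retinoic acid receptor (Rara, Rarb) and a retinoid X receptor (Rxra) read it, and Cyp26a1 degrades it. Hindbrain, spinal cord and eye are patterned by this signal, and both too much and too little of it are known to cause malformations.

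Rarb and Cyp26a1 are textbook targets of the signal, so their transcripts are often read as its output, and the part of their promoters with the known response element is shown here. These are the 120 bases before the start of each gene, on the gene's strand, from RefSeq's promoter table for build GRCm38.p6 (Rarb chr14:16575477-16575596, minus strand; Cyp26a1 chr19:37697688-37697807, plus strand), with the repeat that matches a retinoic acid response element in capitals.
Rarb: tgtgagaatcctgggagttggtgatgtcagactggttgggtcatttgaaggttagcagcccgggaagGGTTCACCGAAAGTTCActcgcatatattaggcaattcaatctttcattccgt
Cyp26a1: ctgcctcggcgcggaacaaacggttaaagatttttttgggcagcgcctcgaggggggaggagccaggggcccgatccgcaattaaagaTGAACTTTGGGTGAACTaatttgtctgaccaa
Each match is a direct repeat with a spacer of 5 bases, known as DR5, which runs with the gene in Rarb and on the opposite strand in Cyp26a1, where it reads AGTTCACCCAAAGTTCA. A search of both strands for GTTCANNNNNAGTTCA found it in 11 of 32851 promoter windows of 300 bases (0.0335%), and 2 of the 16 windows listed for 8 of the 9 genes held it, 1 each for Rarb and Cyp26a1. The wider DR5 pattern, which overlaps that motif, was in 0.0974% of all windows and in the same 2 windows, while GGTCANNNNNAGGTCA was in 0 of the 16 and 0.0548% of all. The single repeat unit AGTTCA, which overlaps these repeats, was in 4 of the 16 windows and 14% of all. The first motif has the form of the repeats printed for Rarb and Cyp26a1, so its match in these 2 windows is not an independent result. A match describes these letters only. Crabp2 is not among the genes matched.

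The arrays came in 2 value tables of different chip versions, the first with replicates 1 and 2 of both groups and the second with replicate 3 of both, and every difference was taken within a table. Median signals were 210 to 227 in the first table and 165 to 173 in the second. Changes are differences of log2(signal + 32), diabetic minus control, a scale on which the fold change of a dim gene comes out too small, and limma gave their standard errors (SE) and p-values, adjusted by Benjamini-Hochberg over the 8631 genes whose mean signal reached 100. Signals are listed below in the order of replicates 1 to 3 of a group. Control replicate 1 stood apart in 18S ribosomal RNA, at 7894, where all other arrays had 101 to 265. Of 11 neural markers on the arrays, 10 passed that filter, among them Sox2 with signals of 1670 to 2993 and Nes with 897 to 2785, as for brain. Mesenchyme and meninges markers were also there, with 12 of 12 past the filter, and embryonic globins were bright, with Hba-x at 13858 to 20997. Of 7 liver and yolk sac markers 0 passed. Their summed signal was 254, 380 and 103 in controls and 481, 504 and 238 in the diabetic group, higher in the latter within each table. It is a sum of dim genes that did not move together. Afp had 8.94, 8.80 and 2.03 in controls and 89.9, 85.3 and 1.90 in the diabetic group, a rise in the first table only. Apoa2 was higher in both tables, with 36.3, 66.2 and 23.8 against 130, 117 and 66.3. Hnf4a was lower in the first table and higher in the second, with 92.9, 103 and 29.8 against 89.0, 88.9 and 60.9. The cause of the higher sum was not tested.

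None of the 9 genes was called different between the groups, and all 9 had been tested. At an adjusted p under 0.05 limma called 0 of 9, against 0% of all genes tested, and at an unadjusted p under 0.05 it counted 0 of 9, against 7.59% of all (655 of 8631). The adjusted p-values of the 9 ran from 0.662 to 0.999. Cyp26a1 and Crabp1 had diabetic means on 1 side of the control in both tables, lower for Cyp26a1 and higher for Crabp1. Beyond these, Aldh1a2 shared a sign between the tables, and the other 6 genes did not, by the probe set used for each. The same sign was thus seen for 3 of 9 genes, against 51.5% of all genes tested. The other probe set of Rxra, 1 of the 6, had the same sign in both tables. Over the 9 genes the median log2 change was -0.025, against 0.012 over all genes tested.

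**Figure D1:**
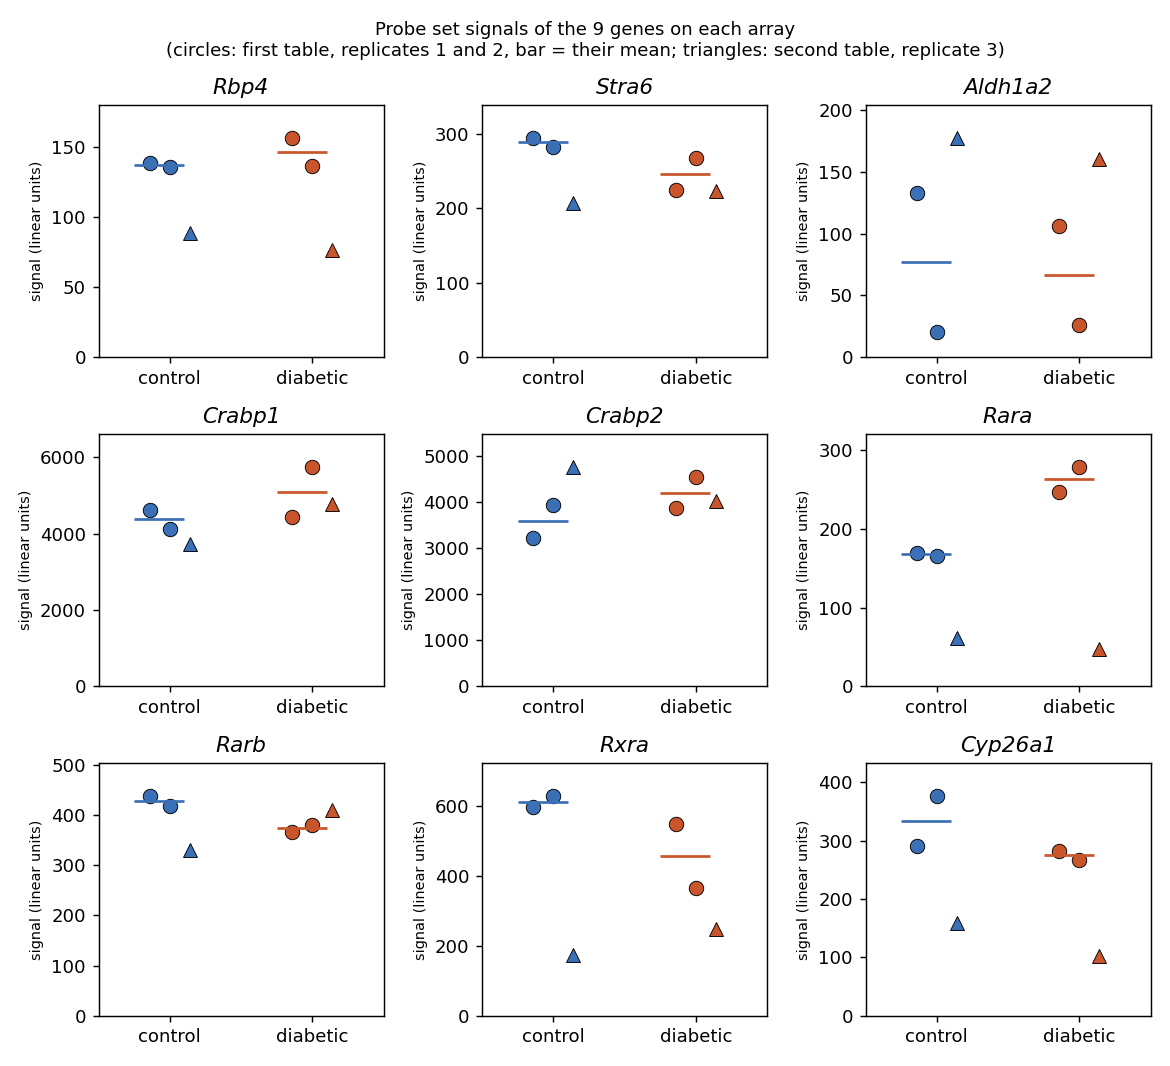
Signal of each of the 9 genes (vertical axes, linear units from 0, a different scale per gene) on the 3 control and 3 diabetic arrays; circles are replicates 1 and 2 of the first table with their mean as a bar, triangles replicate 3 of the second table. Cyp26a1 is lower on the diabetic arrays within each table, and the Aldh1a2 signals of each group span from under 30 to over 160.

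Rbp4 and Stra6 bring vitamin A to the cell. Rbp4 (probe set 1426225_at) had signals of 138, 136 and 88.5 in the controls and 157, 137 and 76.5 in the diabetic group. The groups overlapped in the first table, where diabetic replicate 2 lay between the controls, and in the second the diabetic array was the lower. Over both tables the log2 change was 0.00082 ± 0.15 (SE, n = 3 per group), with a 95% interval of -0.34 to 0.34. The sign depended on single arrays: the change was -0.014, -0.027 and -0.068 without control replicate 1, control replicate 2 and diabetic replicate 1. Stra6 (1422723_at) had 295, 282 and 206 in controls and 224, 267 and 223 in the diabetic group. Both diabetic arrays of the first table lay below both controls, and that of the second table lay above its control. This gave a log2 change of -0.11 ± 0.16, with an interval of -0.47 to 0.25 and an adjusted p of 0.869 in limma. It was -0.21 without either array of the second table and -0.015 without diabetic replicate 1.

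Aldh1a2, the main retinoic acid synthesising enzyme of the early embryo, known in the meninges and other mesenchyme rather than in neural cells, was the most variable of the 9. Its probe set 1422789_at had 133, 20.7 and 178 in the controls and 106, 26.3 and 161 in the diabetic group. The groups overlapped, and replicate 2 was the low array in both. Those 2 arrays were under the 25th percentile of all probe sets on their array (71.5 and 68.8), and each was also below the brightest probe set of the bacterial trpn control on it (45.9 and 34.0), so the gene was near background there. No other of the 9 genes had an array under that percentile. The mean signal of 104 was just past the filter of 100, and that of Rbp4 was 122. Its log2 change was -0.077 ± 0.42 (SE, n = 3 per group), with an interval of -1.01 to 0.86. Its sign turned without control replicate 1 (0.39) and without diabetic replicate 2 (0.27), and with array weights it was 0.49. Replicate 1 was above replicate 2 by 1.65 in the controls and by 1.24 in the diabetic group on the log2 scale, and with the replicate number as a block the SE was 0.17, with an adjusted p of 0.924 in limma. In bulk tissue, fewer cells of a type and less RNA per cell cannot be told apart. The mesenchyme and meninges markers had a median log2 change of -0.29 with 12 of 12 below 0, and summed signals of 15662 to 19150 in controls and 12882 to 15945 in the diabetic group. By table they were below 0 for 10 of 12 (first, median -0.30) and 9 of 12 (second, median -0.28). Over all genes tested 52.2% had changes above 0. Eye and pigment epithelium markers summed to 930 to 1390 and 1045 to 1358. The part of either cell type in the Aldh1a2 values was not tested.

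The binding proteins Crabp1 and Crabp2 were bright on every array. Crabp1, which is known to mark hindbrain neurons and neural crest (1448326_a_at), had 4623, 4117 and 3716 in the controls and 4421, 5743 and 4771 in the diabetic group. Diabetic replicate 1 lay between the controls of its table, and the other diabetic arrays lay above theirs. Its log2 change was 0.26 ± 0.17 (SE, n = 3 per group), with an interval of -0.12 to 0.63, an unadjusted p of 0.156 and an adjusted p of 0.711 in limma. The tables gave 0.21 (first) and 0.36 (second). As single arrays were left out the change stayed between 0.16 and 0.38. Of 5 neural crest markers tested, 4 had changes below 0, with a median of -0.29. By table it was 0.0021 (first) and -0.24 (second), and Sox10, a crest factor, had 0.49 and -0.15. The part of these cells in the Crabp1 values was not tested.

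Crabp2, which delivers retinoic acid to the receptors (1451191_at), had 3229, 3951 and 4774 in controls and 3885, 4544 and 4031 in the diabetic group. The groups overlapped in the first table, and the diabetic array was the lower in the second. Crabp2 had a log2 change of 0.074 ± 0.18 (SE, 3 arrays per group), with an interval of -0.32 to 0.47. The tables gave 0.23 (first) and -0.24 (second), and the value turned to -0.054 without control replicate 1 and -0.035 without diabetic replicate 2. Over all arrays both Crabp genes had positive changes, neither past the test.

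**Figure D2:**
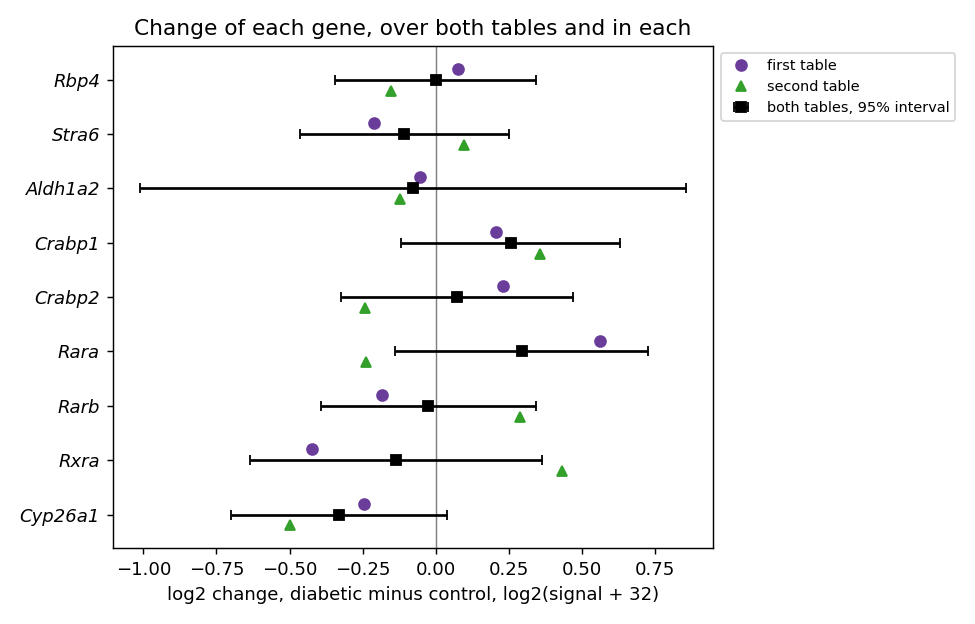
Log2 change of each gene, diabetic minus control (horizontal axis), over both tables with its 95% interval from limma (squares), and as the difference of group means in the first (circles) and second (triangles) table. All 9 intervals include 0, and for 6 genes the circle and the triangle are on opposite sides of it.

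By the probe sets used, the receptor genes Rxra and Rara had the widest gaps between the tables among the 9, with 0.86 and -0.80 as the second minus the first. Rara, the broadly expressed retinoic acid receptor (1450180_a_at), had 169, 166 and 61.7 in the controls and 247, 278 and 47.4 in the diabetic group. In the first table both diabetic arrays lay above both controls, which differed from each other by only 0.021 in log2, while in the second the diabetic array lay below its control. The first table gave a log2 change of 0.56, the second -0.24, and both together 0.29 ± 0.19 (SE, n = 3 per group), with an adjusted p of 0.712 in limma. In the first table alone the unadjusted p was 0.015 and the adjusted p 0.428. That is also the value without control replicate 3 or without diabetic replicate 3. For Rara the gap between the tables had an unadjusted p of 0.034 and an adjusted p of 0.721 in limma.

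Rarb, both a receptor and a known target of the pathway, with the repeat printed above in its promoter (1454906_at), had 438, 419 and 330 in controls and 366, 381 and 410 in the diabetic group. Both diabetic arrays of the first table were below its controls, and the diabetic array of the second was above its control. Over both tables Rarb had a log2 change of -0.025 ± 0.16 (SE, 3 arrays per group), with -0.18 (first) and 0.29 (second), and an interval of -0.39 to 0.34. Leaving out any 1 array of the first table turned the sign: it was 0.037 and 0.0030 without control replicates 1 and 2, and 0.035 and 0.0051 without diabetic replicates 1 and 2.

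Rxra, the partner that retinoic acid receptors share with many other nuclear receptors, is the 1 gene of the 9 with another probe set. The brighter one (1425762_a_at) had 596, 627 and 175 in the controls and 549, 365 and 247 in the diabetic group. It was lower on both diabetic arrays of the first table (log2 change -0.42) and higher in the second (0.43), with -0.14 ± 0.22 (SE, n = 3 per group) over both and an adjusted p of 0.876 in limma. Without diabetic replicate 2 the change was 0.10. The other probe set (1454773_at) had 504, 489 and 363 in controls and 446, 483 and 262 in the diabetic group. There the diabetic arrays were lower in both tables, with changes of -0.092 and -0.42 and -0.20 ± 0.16 over both, so the probe sets disagreed on the second table.

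Cyp26a1, the enzyme that clears retinoic acid and the other known target with a printed repeat (1419430_at), had 291, 376 and 159 in the controls and 282, 267 and 103 in the diabetic group. By the probe set used for each gene, it was the 1 gene of the 9 whose diabetic arrays did not overlap the controls within each table, against 22% of all genes tested (10.7% on the lower side). The margin was narrow in the first table, with 282 on diabetic replicate 1 against 291 on control replicate 1. The log2 change was -0.33 ± 0.16 (SE, n = 3 per group), with an interval of -0.70 to 0.039, an unadjusted p of 0.074 and an adjusted p of 0.662 in limma. By table it was -0.25 (first) and -0.50 (second), and it was -0.45 to -0.25 as single arrays were left out. Without control replicate 1 its unadjusted p was 0.031 and its adjusted p 0.949.

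**Figure D3:**
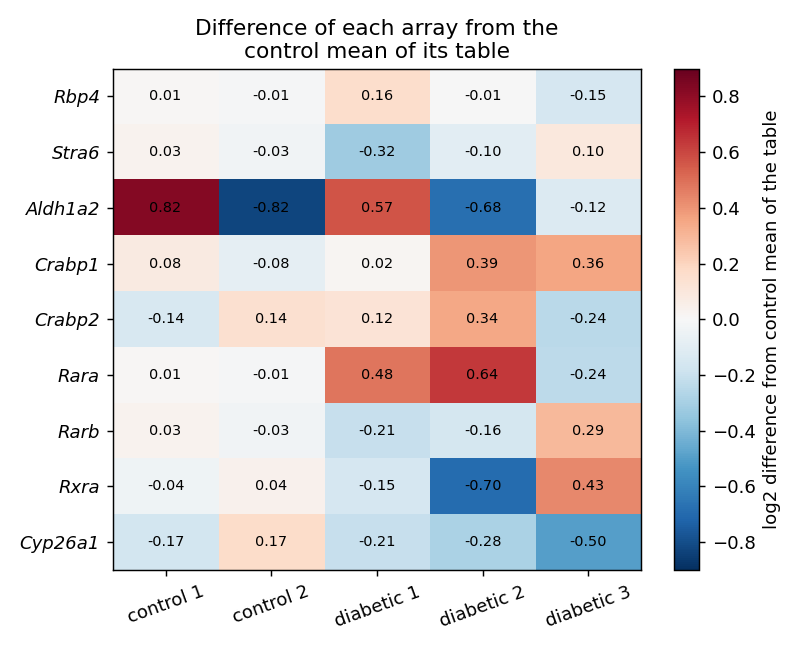
Difference of log2(signal + 32) of each array from the control mean of its table, for the 9 genes (rows); control replicate 3, the only control of its table, is 0 by construction and not drawn. Cyp26a1 has -0.21, -0.28 and -0.50 on the 3 diabetic arrays, and Rara has 0.48, 0.64 and -0.24.

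In the first table alone, 5 of the 9 genes did not overlap between groups, against 42.9% of all genes tested. Rara was higher and Rarb, Rxra, Stra6 and Cyp26a1 were lower on the diabetic arrays, and for 4 of these 5, all but Cyp26a1, the second table had the opposite sign. For Rxra this rests on the probe set used, with a mean signal of 426. Its other probe set, at 424, was lower on the diabetic arrays in both tables. With 1 array per group the second table has no replicate check of its own. Over the 9 genes the adjusted p of the difference between tables ran from 0.721 to 0.996 in limma.

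The likeness of other genes was measured for the 3 most variable members, as the root mean square difference of log2 deviations from the table mean over the 6 arrays. For Aldh1a2, whose own deviations had an SD of 0.65, the nearest genes were Cdk2 (0.22), Map3k4 (0.22) and Bmp1 (0.23). Nearest to Rxra, with an SD of 0.29, were Ttyh1 (0.021), Nxph3 (0.038) and Mrpl48 (0.042). Rara, with an SD of 0.27, had Impdh1 (0.022), Ubxn1 (0.030) and Ppp2r5a (0.041) as its nearest genes. Nearest genes were picked from all genes tested over only 6 arrays, so small differences can come from the picking. No link to the members was tested.

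Beyond the 9 genes, 53 of 64 other genes of the pathway were on the arrays and 34 passed the filter. A list for breakdown, Cyp26b1 and Cyp26c1, had 0 of 2 genes on the arrays, so Cyp26a1 was the only breakdown enzyme measured here. In limma 0 of the 34 passed at an adjusted p under 0.05, and at an unadjusted p under 0.05 there were 2 higher and 3 lower, against 3.72% and 3.87% of all genes tested. Their changes were above 0 for 12 and below 0 for 22, with a median of -0.054, against 52.2% above 0 and a median of 0.012 over all genes tested.

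The list for retinoic acid synthesis, which also holds reductases of retinaldehyde such as Dhrs4, had the lowest median of these lists. It was -0.26 over 11 genes, with 8 below 0, and is not a measure of synthesis itself. Dhrs4, a reductase of retinaldehyde among other substrates, had signals of 596, 452 and 475 in the controls and 333, 260 and 402 in the diabetic group. The groups did not overlap in either table, and the log2 change was -0.58 ± 0.19 (SE, n = 3 per group). Aldh1a1, a sister enzyme of Aldh1a2, had 238, 197 and 182 in controls and 59.8, 97.1 and 219 in the diabetic group, lower in the first table (-1.19) and higher in the second (0.23), with -0.72 ± 0.28 over both, -0.44 without diabetic replicate 1 and -1.19 without either array of the second table. On the other side, Adh7, an alcohol dehydrogenase that can oxidise retinol, had 94.5, 135 and 27.3 in controls and 213, 154 and 78.7 in the diabetic group, with 0.67 ± 0.19 and no overlap. The adjusted p-values of these 3 genes in limma were 0.609, 0.648 and 0.531. The other probe set of Dhrs4 had a log2 change of -0.39, and that of Adh7, which is dim, 0.11. On diabetic replicate 1, Aldh1a1 (59.8) was under the lower quartile of all probe sets on that array (75.6). So was Adh7 (27.3) on control replicate 3, with a quartile of 30.3. Both were above the brightest trpn probe set of their array (9.29 and 4.21). The change of Aldh1a1 in the first table and that of Adh7 in the second (0.90) include these low signals. On diabetic replicates 1 to 3 the list median was -0.21, -0.15 and -0.13, and without single arrays it ran from -0.37 to -0.19 with 7 to 10 of 11 genes below 0. Mesenchyme and meninges markers were below 0 for 12 of 12 (median -0.29), with 10 of 12 in the first table and 9 of 12 in the second. Their part in the synthesis list was not tested.

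**Figure D4:**
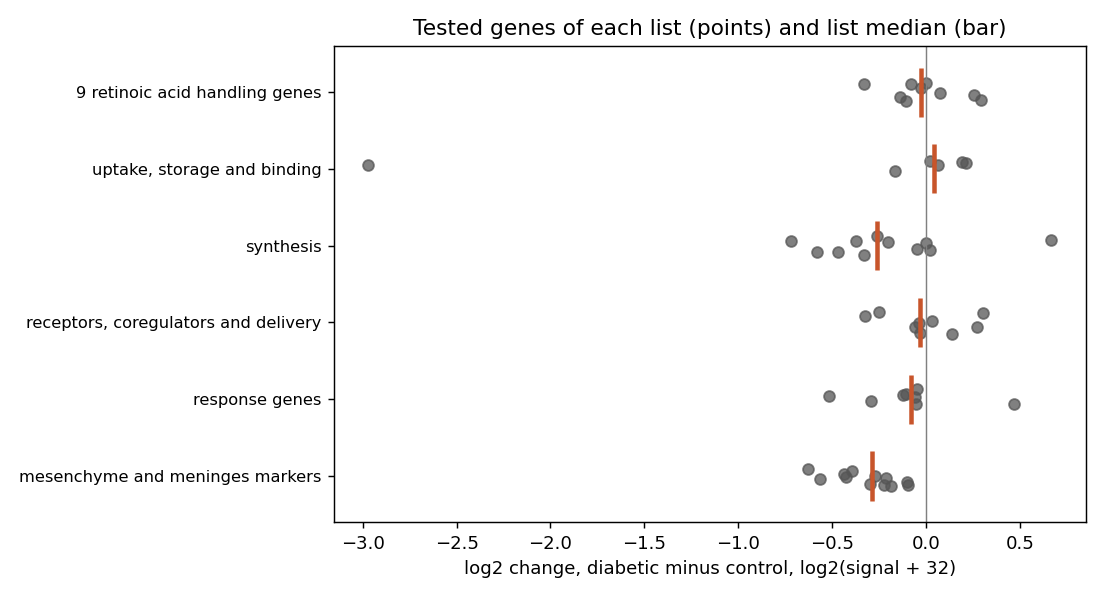
Log2 change of each tested gene (points, horizontal axis, diabetic minus control) in the 9 retinoic acid handling genes, 4 lists of other pathway genes and the mesenchyme and meninges markers, with the list median as a bar; vertical scatter within a list only separates points. Medians are -0.025, 0.043, -0.26, -0.033, -0.081 and -0.29 from top to bottom, and Ttr is the point at -2.97.

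Among genes of vitamin A uptake, storage and binding, 6 were tested, with 4 above 0 and a median of 0.043. Without either array of the second table the median was -0.088, with 4 of the 6 below 0. Ttr, transthyretin, which carries Rbp4 in blood and is made in the choroid plexus, had signals of 1149, 1115 and 3004 in controls and 121, 11.4 and 1252 in the diabetic group, which is -2.97 ± 0.55 (SE, n = 3 per group) in log2, with an adjusted p of 0.526 in limma. By table it was -3.83 (first) and -1.24 (second), and it was -2.20 without diabetic replicate 2. On diabetic replicate 2 its signal was under the 25th percentile of that array (68.8) and under its brightest trpn probe set (34.0), so it was near background there and was above that percentile on the other 2 diabetic arrays. The size of the change therefore has no exact value in the first table. Its 2 other probe sets each had a log2 change of -2.72. Roof plate and choroid plexus markers, a list that includes Ttr itself, summed to 2985 to 4114 in controls and 1604 to 2158 in the diabetic group. Their median change was -0.057 over 6 tested genes, 3 of them below 0. Msx1, a roof plate factor, had -0.50 with no overlap (adjusted p of 0.646 in limma), and Kcne2, a choroid plexus channel subunit too dim to be tested, had 68.3, 72.6 and 45.7 in controls and 6.94, 21.2 and 8.41 in the diabetic group. On diabetic replicates 1 and 2 Kcne2 was near background, under the 25th percentile (75.6 and 68.8) and the brightest trpn probe set (9.29 and 34.0). On control replicate 1 and diabetic replicate 3 it was under that percentile only. The size of its change therefore has no exact value. Folr1 of the same list had a change of 0.26. Aqp1, also of that list and too dim to be tested, had 101, 128 and 34.5 in controls and 116, 102 and 46.1 in the diabetic group. The part of these cells in the Ttr values was not tested. Its partner Rbp4 had the interval of -0.34 to 0.34 given above. Scarb1, a lipid and carotenoid receptor, had 0.19 ± 0.17, and Lrp2, an endocytic receptor of retinol-binding protein, 0.21 ± 0.19. Without single arrays Scarb1 ran from 0.069 (without control replicate 1) to 0.28, and Lrp2 from 0.046 (without diabetic replicate 2) to 0.38 (without either array of the second table). The other Lrp2 probe set went the opposite way, at -0.12.

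Of the other receptors, coregulators and delivery genes, 9 were tested, with 4 above 0 and a median of -0.033. The median was 0.12 without either array of the second table and 0.045 without control replicate 2, with 3 of 9 below 0 in each case, and 0.018 with array weights. Ncoa3 and Ncoa2, coactivators of nuclear receptors, had log2 changes of 0.31 ± 0.18 and 0.28 ± 0.20 (SE, n = 3 per group), and Nr2f1, an orphan receptor that binds similar DNA repeats, -0.32 ± 0.19. Without single arrays Ncoa3 ran from 0.15 (without diabetic replicate 2) to 0.46 (without diabetic replicate 1), and Ncoa2 from 0.088 (without control replicate 1) to 0.47 (without control replicate 2). Nr2f1 ran from -0.49 (without diabetic replicate 1) to -0.13 (without either array of the second table). Rarg, the remaining retinoic acid receptor, chosen here after its values were seen, had 0.14 ± 0.16. Adjusted p-values in limma were 0.690 for Ncoa3, 0.732 for Ncoa2 and 0.697 for Nr2f1.

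Response genes, known targets of retinoic acid, had a median of -0.081 over 8 genes, with 7 below 0. Tgm2, a transglutaminase induced by retinoic acid in many cells, was the exception. Its arrays read 183, 144 and 79.5 in the controls and 193, 267 and 135 in the diabetic group. The groups did not overlap within tables, and its log2 change was 0.47 ± 0.18 (SE, n = 3 per group) with an adjusted p of 0.640 in limma. Its 5 other probe sets did not all follow, with log2 changes from -0.016 to 0.66. Hoxa2, a hindbrain patterning gene, had -0.29 ± 0.21, with -0.52 without diabetic replicate 1, -0.12 without diabetic replicate 2 and -0.046 with array weights. Neurog2, a proneural factor, had -0.52 ± 0.39, with -1.04 (first table), 0.54 (second table) and 0.017 without diabetic replicate 2. The 3 neuron markers of the neural list had changes of the same signs by table, with -1.04 and 0.27 for Dcx, -1.01 and 0.82 for Stmn2 and -0.50 and 0.76 for Tubb3. Over all 10 neural markers tested 5 were below 0, with a median of 0.012, and summed signals were 11242 to 12510 in controls and 10484 to 14180 in the diabetic group. The part of neuron content in the Neurog2 values was not tested. Without diabetic replicate 2, 3 of the 8 response genes were below 0, and the list median was 0.043.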

How the data were processed

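The authors deposited 1 linear signal intensity per probe set and array, in 2 value tables of 22690 probe sets (64 of them array controls). Per the submitters' processing notes they used GCOS. For its algorithm and background step, on which low signals depend, the sources used here give nothing. Genes were named from annotation of probe sets with 1 gene (691 name several), and 20351 of 20380 matched a RefSeq identifier, which changed 0 symbols. Each array was scaled to a trimmed mean of 500 (2% off each end, a move of at most 0.0363%). Each gene took its probe set of highest mean signal. limma 3.58.1 in R 4.3.3 (lmFit, eBayes, two-sided) compared the groups with the table as a block, over 6 arrays with 3 residual and 6.37 prior degrees of freedom, after tests on simulated data. The median SE was 0.173, and the small number of arrays sets this precision.

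The 9 genes and the pathway and marker lists were chosen with earlier results of these data known. Named were the 9 genes, the 3 tested genes of smallest p in each pathway list, the 2 brightest tested genes of some marker lists, and the 3 genes nearest to each of the 3 most variable members. Sox10, Kcne2, Folr1, Aqp1, Dcx, Stmn2, Tubb3, Afp, Apoa2 and Hnf4a were named after their values were seen. Alternatives changed the pseudocount, filter, normalization, probe set, block, weights, table and arrays used. The list medians without single arrays and the term between tables were added after seeing the data.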

Additional observations from a re-analysis of the deposited data

How the results depend on the processing

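In every alternative fitted here limma called 0 genes and 0 of the 9 members, and over 169 member values under the alternatives the sign held in 147 and turned in 22, with adjusted p-values from 0.428 to 0.9997. Many of the 147 could not turn, since a different filter or block did not alter a member's change. Probe set choices moved only Rxra, and the first table alone is the same fit as leaving out either array of the second. The 147 is therefore not a measure of robustness. With the replicate number as a block 0 genes were called and Cyp26a1 had an adjusted p of 0.695. Deviations of arrays with the same number correlated at 0.45, 0.43 and 0.747 across genes for numbers 1 to 3 over both tables, which includes the difference between tables. Within the first table the deviations of same-numbered arrays correlated at -0.013 across genes. With 2 arrays per group there, this value cannot say whether same-numbered arrays share a litter or a batch. The block changed no call, but 0 genes were called with or without it. Rbp4 turned to -0.0024 with a pseudocount of 16, -0.023 with quantile normalization and -0.0068 with arrays centred on the median. Aldh1a2 was 0.49 with array weights. In the second table alone Crabp2 had -0.24, Rbp4 -0.15, Rara -0.24, Rarb 0.29, Rxra 0.43 and Stra6 0.096. The count of members without overlap was 2 with the probe set of highest mean log2 signal, which takes the other Rxra probe set, and 5 in the first table alone. At an unadjusted p under 0.05, members counted 1 with array weights (Cyp26a1) and 1 in the first table alone (Rara), and all genes 97 without the table block. Leaving out single arrays gave 416 to 846 genes and 0 to 1 members at an unadjusted p under 0.05, 1 to 5 members without overlap, and changes of -0.55 to 0.39 for Aldh1a2, -0.054 to 0.23 for Crabp2, -0.18 to 0.037 for Rarb, -0.068 to 0.077 for Rbp4, -0.42 to 0.10 for Rxra and -1.04 to 0.017 for Neurog2. The cause of these moves was not tested. Signal near background, under both the lower quartile of an array and its brightest trpn probe set, limits Aldh1a2 on 2 arrays and Ttr on 1. It also limits genes too dim to be tested, such as Kcne2 on diabetic replicates 1 and 2, and Afp on all controls and diabetic replicate 3. Aldh1a1 on diabetic replicate 1 and Adh7 on control replicate 3 were under the lower quartile only, so their changes also include low signals.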

Other observations

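Of the pathway genes on the arrays, 19 had a mean signal under 100 and were not tested. They included Rbp2, Rbp7, Lrat, Rpe65 and Rlbp1, which belong to vitamin A storage and the visual cycle, Rxrg among the receptors, and Hoxa4, Hoxb4, Hoxb5 and Cdx1 among the posterior response genes. Hoxb1, another of them and a hindbrain target of retinoic acid, had signals of 88.5, 109 and 56.1 in the controls and 97.5, 86.8 and 63.2 in the diabetic group, in replicate order, and the groups overlapped in the first table. These genes were named after their values were seen.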
